A study of Mus musculus with 6 samples.

Results

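Areg, Ereg and Hbegf encode 3 ligands of the epidermal growth factor (EGF) receptor, and their expression is described here in mouse embryonic fibroblasts (MEFs) with and without the heterochromatin protein BAHD1. The genes were chosen from a deposited comparison table of 491 named transcript clusters, which the study had called as different between the genotypes out of 23332 clusters on the array. All 3 are higher in Bahd1-KO MEFs in that table, and since this contrast selected them, their differences between genotypes are given as a description with no test. Primary MEFs came from 3 Bahd1-KO and 3 Bahd1-WT embryos on a C57BL/6 background, taken at E13.5 (embryonic day) from crosses of heterozygous parents and processed 1 by 1. The Bahd1-KO embryos inherited the ablation from both parents, so that it was not limited to a cell type. The cells were grown from minced embryos without heads, frozen, thawed once and expanded for 1 passage, so each culture was a mixed outgrowth of a whole trunk, and the sex of the embryos was not given in the labels. RNA from each culture was hybridised to 1 Mouse Exon 1.0 ST array.

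EGF family ligands are made as membrane-anchored precursors that metalloproteases cut to release the soluble growth factor. The released ligand binds EGFR or another ErbB receptor on the same or a neighbouring cell, and the receptor signals through RAS and the kinases MEK and ERK to immediate early genes, among them transcription factors and the phosphatases and Sprouty proteins that damp the signal again. Several ligand genes are themselves targets of this signalling, so a ligand can sustain its own production and that of its relatives. In fibroblasts the pathway is best known for driving cell division and migration.

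The values are log2 expression levels normalised by robust multichip average (RMA), and a difference of 1 is a doubling. The medians of the 6 arrays lay between 5.01 and 5.06, and the arrays correlated across clusters with r from 0.985 to 0.990 within a genotype and from 0.984 to 0.988 between genotypes. When limma was fitted to all 23332 clusters, 0 clusters (0%) passed an adjusted p of 0.05, the smallest adjusted p being 0.222, although 2425 clusters had an unadjusted p under 0.05 (1527 higher and 898 lower in Bahd1-KO MEFs). The Bahd1 cluster itself is not among the 491 named ones, so its level was not analysed here. The study states that it verified the loss of Bahd1 expression by quantitative reverse transcription PCR, in MEFs among other samples. Y-linked genes were high in 2 Bahd1-KO arrays (replicates 2 and 3) and 1 Bahd1-WT array (replicate 2), which left embryos of both kinds in each genotype but in unequal numbers.

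Areg encodes amphiregulin, a ligand of EGFR that was first known as a growth regulator of epithelial cells. Its level was 7.67, 7.59 and 7.37 in the 3 Bahd1-KO arrays, against 6.83, 6.41 and 6.55 in the 3 Bahd1-WT arrays. The genotypes did not overlap, and 0.55 separated the lowest Bahd1-KO array from the highest Bahd1-WT array. Areg averaged 7.54 ± 0.15 in Bahd1-KO MEFs and 6.59 ± 0.21 in Bahd1-WT MEFs (SD, n = 3 each), a log2 difference of 0.95 or 1.93-fold. Ranked by signed difference, Areg stood at place 115 of 23332 clusters and at place 28 of the 491 named ones. As the cells were measured in bulk, more cells that express a ligand and more RNA per cell cannot be told apart, for this gene and for those that follow.

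The array annotation places the Areg cluster on the plus strand of chromosome 5, from 91563783 to 91709049, in a genome build that is not given in the sources used here. This stretch is 145267 bases long, while the RefSeq gene in GRCm38.p6 spans 8834 bases. The ratio of 16.4 is far above the median of 1.09 among the 461 named genes with a RefSeq length, and 14 genes have a larger one. How much of the Areg value comes from probes outside the RefSeq gene was not tested.

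The 250 bases before the Areg start are shown as the regulatory sequence next to the ligand gene with the greatest difference of the 3. The RefSeq promoter table of GRCm38.p6 held 1 of the 3 genes, Areg, on the plus strand at chr5:91139349-91139598, with the cyclic AMP response element (CRE) and the GC box in capitals:
Areg promoter: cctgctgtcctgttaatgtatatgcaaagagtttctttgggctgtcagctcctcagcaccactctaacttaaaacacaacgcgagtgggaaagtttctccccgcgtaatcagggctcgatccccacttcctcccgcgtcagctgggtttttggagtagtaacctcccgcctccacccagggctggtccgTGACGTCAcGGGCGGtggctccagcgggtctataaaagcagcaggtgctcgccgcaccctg
The full CRE, TGACGTCA, which reads the same on both strands and is bound by CREB family factors, lay 61 to 54 bases before the start. The GC box GGGCGG lay 52 to 47 bases before it, just downstream of the CRE. Both strands were searched in 32851 promoters of the same length, of which 1.55% held a full CRE and 32.7% a GC box. The shorter CRE core TGACG, held by 17.8% of the promoters, had 3 matches, 2 of which lie inside the full CRE. No match was found for the AP-1 motif TGANTCA, present in 6.75% of promoters, or for the CArG box of serum response factor, present in 1.47%. These matches describe the letters in this window only.

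Ereg encodes epiregulin, which binds EGFR and ERBB4, and its cluster is numbered next to that of Areg on the same strand. Its level was 7.30, 7.16 and 7.61 in Bahd1-KO arrays, against 6.64, 7.04 and 6.30 in Bahd1-WT arrays. The genotypes did not overlap, but Bahd1-WT replicate 2 came within 0.12 of the lowest Bahd1-KO array, which was the narrowest gap of the 3 ligands. Ereg averaged 7.36 ± 0.23 in Bahd1-KO MEFs and 6.66 ± 0.37 in Bahd1-WT MEFs (SD, n = 3 each), a log2 difference of 0.70 or 1.62-fold. It stood at place 350 of all clusters and 80 of the named ones. Its cluster lies on the plus strand of chromosome 5 from 91499002 to 91522672, 23671 bases against 19033 for the RefSeq gene.

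Hbegf encodes heparin-binding EGF-like growth factor, a ligand of EGFR and ERBB4 whose membrane-bound precursor is also the receptor of diphtheria toxin in humans. Its level was 9.03, 9.21 and 9.59 in Bahd1-KO arrays, against 8.67, 8.73 and 8.23 in Bahd1-WT arrays. The lowest Bahd1-KO array lay 0.30 above the highest Bahd1-WT array, so here too the genotypes stood apart. Hbegf averaged 9.28 ± 0.28 in Bahd1-KO MEFs and 8.54 ± 0.27 in Bahd1-WT MEFs (SD, n = 3 each), a log2 difference of 0.73 or 1.66-fold, at place 303 of all clusters and 63 of the named ones. The cluster lies on the minus strand of chromosome 18 from 36664587 to 36675428, 10842 bases against 10879 for the RefSeq gene.

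**Figure D1:**
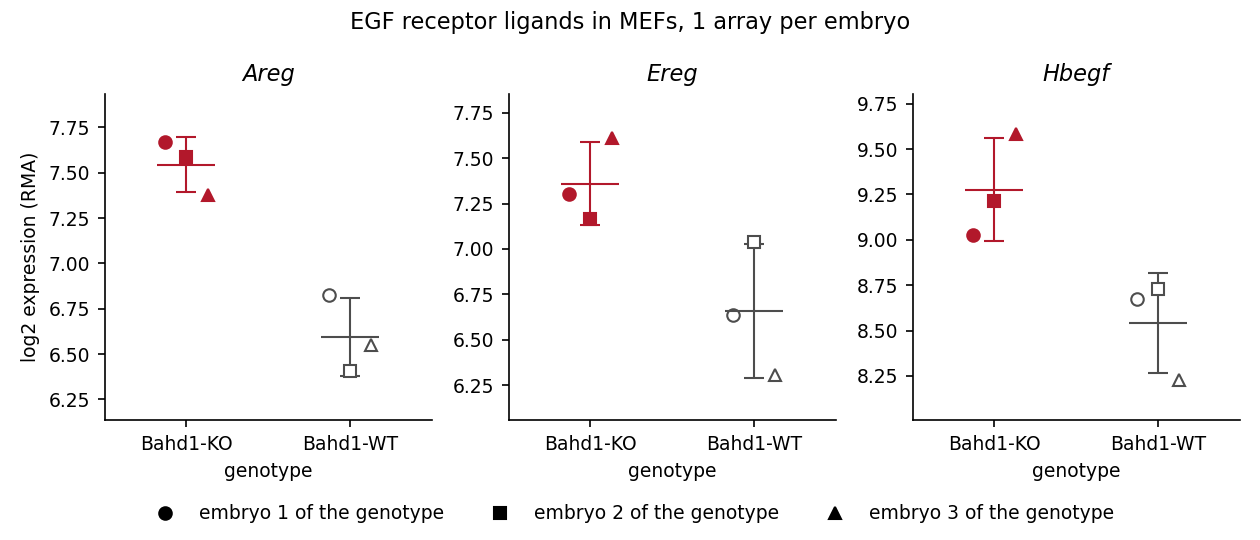
Log2 expression of Areg, Ereg and Hbegf on each array, with Bahd1-KO embryos on the left and Bahd1-WT embryos on the right of each panel. Each point is 1 embryo, each horizontal line the mean of 3 and each vertical bar the SD on either side of it, and in all 3 genes every Bahd1-KO array lies above every Bahd1-WT array, with the narrowest gap (0.12) for Ereg.

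All 3 ligands thus had each Bahd1-KO array above each Bahd1-WT array. Over the whole array 2663 of 23332 clusters (11.4%) did so, and 1550 (6.64%) had each Bahd1-KO array below each Bahd1-WT array. Among the 491 clusters of the table from which the ligands were chosen, 293 (59.7%) stood apart upward, so the separation is common in that table, and nothing is read from it for the ligands. The median difference was 0.02 over all clusters and 0.43 over the table, in which 354 clusters were higher and 137 lower in Bahd1-KO MEFs. With 3 embryos against 3, an exact two-sided permutation test cannot give a p below 0.1.

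The ligands differed in how steady they were between embryos of 1 genotype. The pooled SD within genotypes was 0.18 for Areg, 0.31 for Ereg and 0.28 for Hbegf, which placed them at percentiles 59.2, 77.6 and 74.4 of all clusters. The difference between genotypes was 5.14 times this SD for Areg, 2.28 times for Ereg and 2.63 times for Hbegf. All 3 therefore varied more between embryos of a genotype than the typical cluster, and Areg the least of them.

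Ereg and Hbegf also varied together where Areg did not. In both of them Bahd1-KO replicate 3 was the highest array of its genotype and Bahd1-WT replicate 3 the lowest of its own, with deviations from the genotype mean of 0.25 and -0.36 for Ereg and of 0.31 and -0.32 for Hbegf. For Areg, Bahd1-KO replicate 3 was the lowest of its genotype (-0.17) and Bahd1-WT replicate 3 was in the middle (-0.04). The deviations of Ereg and Hbegf correlated with r = 0.83 over the 6 arrays, against -0.53 for Areg with Ereg and -0.37 for Areg with Hbegf. These r values describe 6 arrays with 1 mean removed per genotype, and the genes share the arrays.

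This arrangement of the replicate 3 arrays was noticed after the values had been seen, and was counted over other clusters as a description. Over the whole array Bahd1-KO replicate 3 was the highest of its genotype in 30.7% of clusters and Bahd1-WT replicate 3 the lowest of its own in 37.8%. Both held for 2675 of all 23332 clusters (11.5%), for 146 of the 491 named clusters (29.7%) and for 141 of the 354 named clusters that were higher in Bahd1-KO MEFs (39.8%). In a limma fit with array weights, Bahd1-WT replicate 3 had the lowest weight at 0.544, while the other 5 arrays had weights between 0.893 and 1.48. Without it the differences were 0.93 for Areg, 0.52 for Ereg and 0.58 for Hbegf. Without Bahd1-KO replicate 3 they were 1.03, 0.57 and 0.58 in the same order. The part of array quality in these differences was not tested.

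**Figure D2:**
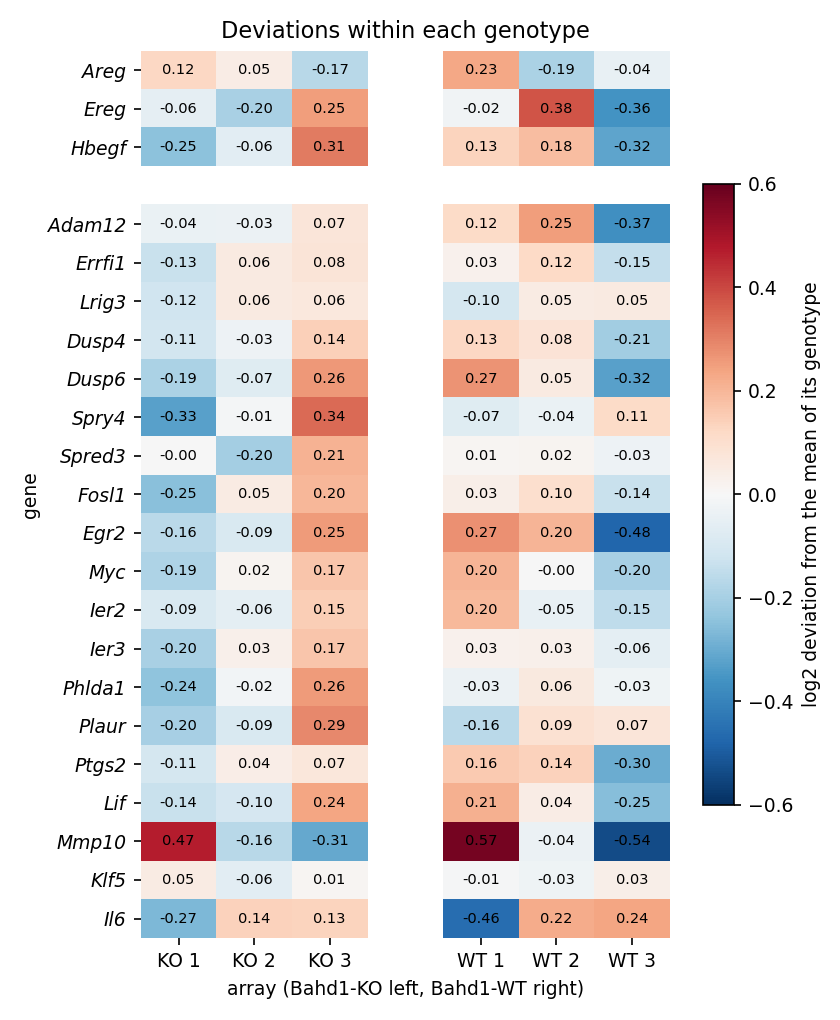
Deviation of each array from the mean of its genotype (log2, colour and printed value) for the 3 ligands, above the gap, and for the named genes of ligand shedding, receptor feedback and ERK signalling, below it. Bahd1-KO arrays are on the left and Bahd1-WT arrays on the right, and Ereg and Hbegf are highest in Bahd1-KO replicate 3 and lowest in Bahd1-WT replicate 3, whereas Areg is not.

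Within arrays of like Y-linked level the direction was the same for each ligand. This had to follow, since every Bahd1-KO array lay above every Bahd1-WT array, so only the sizes are informative. The difference of Areg was 0.98 among the arrays with low Y-linked expression (1 Bahd1-KO, 2 Bahd1-WT) and 1.08 among those with high expression (2 Bahd1-KO, 1 Bahd1-WT). Hbegf gave 0.58 and 0.67 in the same order. Ereg gave 0.83 and 0.35, the lower value being that of the group whose single Bahd1-WT array, replicate 2, was the highest of its genotype. With Y-linked level as a covariate the differences were 1.02 for Areg, 0.60 for Ereg and 0.63 for Hbegf.

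Of the other 490 named clusters, those most like each ligand by Pearson's r over the 6 arrays were different for each. Areg was most like Emcn, which encodes the endothelial sialoprotein endomucin (r = 0.99), the phosphodiesterase gene Pde10a (0.97) and the serpin gene Serpinb9b (0.96). Ereg was most like the sterol synthesis gene Nsdhl (0.99), the heparan sulfate sulfotransferase gene Hs6st2 (0.99) and the carbonyl reductase gene Cbr3 (0.98). For Hbegf the semaphorin gene Sema7a came first (r = 0.998), and Rgs16, a regulator of G protein signalling, was also among the closest (0.99). Since all of these genes were called on the same contrast, r over the 6 arrays holds the difference between genotypes, and r of the deviations alone was 0.92 for Emcn with Areg, 0.98 for Nsdhl with Ereg and 0.99 for Sema7a with Hbegf. The genes were picked by r over the 6 arrays, which holds these deviations too, so the choice favoured a high r of deviations.

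Emcn followed the array order of Areg closely, at 6.14, 6.08 and 5.62 in Bahd1-KO arrays against 4.93, 4.56 and 4.59 in Bahd1-WT arrays. Sema7a, like Hbegf, was highest in Bahd1-KO replicate 3 and lowest in Bahd1-WT replicate 3, at 6.30, 6.50 and 7.01 in Bahd1-KO arrays against 5.82, 5.79 and 5.14 in Bahd1-WT arrays. Nsdhl, whose genotypes overlapped, had 8.65, 8.48 and 8.78 in Bahd1-KO arrays against 8.28, 8.48 and 8.05 in Bahd1-WT arrays. Among the same 490 clusters Hbegf stood at place 30 in likeness to Ereg, whereas Ereg stood at place 295 and Hbegf at place 246 in likeness to Areg.

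Ereg and Areg are next to each other in the numbering of clusters, which follows position on this strand in all 18 named clusters of the chromosome that can be checked, and 41110 bases lie between their annotated ends. Of the 10 clusters on either side of the pair, 5 had each Bahd1-KO array above each Bahd1-WT array and 3 the reverse, beside 11.4% and 6.64% of all clusters, and the median difference of these 20 was 0.04. The closest cluster before Ereg had a difference of -0.08. The closest after Areg is Parm1, which encodes a mucin-like protein and lies 199423 bases away. Its level was 7.81, 7.35 and 7.23 in Bahd1-KO arrays against 7.26, 6.88 and 6.84 in Bahd1-WT arrays, a difference of 0.47 with overlapping genotypes.

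The same window holds a pair of platelet chemokine genes that went in opposite directions. Ppbp had 7.44, 7.30 and 7.20 in Bahd1-KO arrays against 6.46, 6.68 and 6.39 in Bahd1-WT arrays, a difference of 0.80. Pf4, the next cluster, had 7.14, 7.52 and 6.87 in Bahd1-KO arrays against 7.72, 7.65 and 8.11 in Bahd1-WT arrays, a difference of -0.65, and ends 296272 bases before Ereg. The 20 clusters around Hbegf had a median difference of -0.005, with 4 apart upward and 2 apart downward, beside the same 11.4% and 6.64% of all clusters. The clusters directly before and after Hbegf on its strand differed by 0.04 and -0.12. The greatest difference in that window was 1.05, for Lrrtm2, a synaptic adhesion gene.

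**Figure D3:**
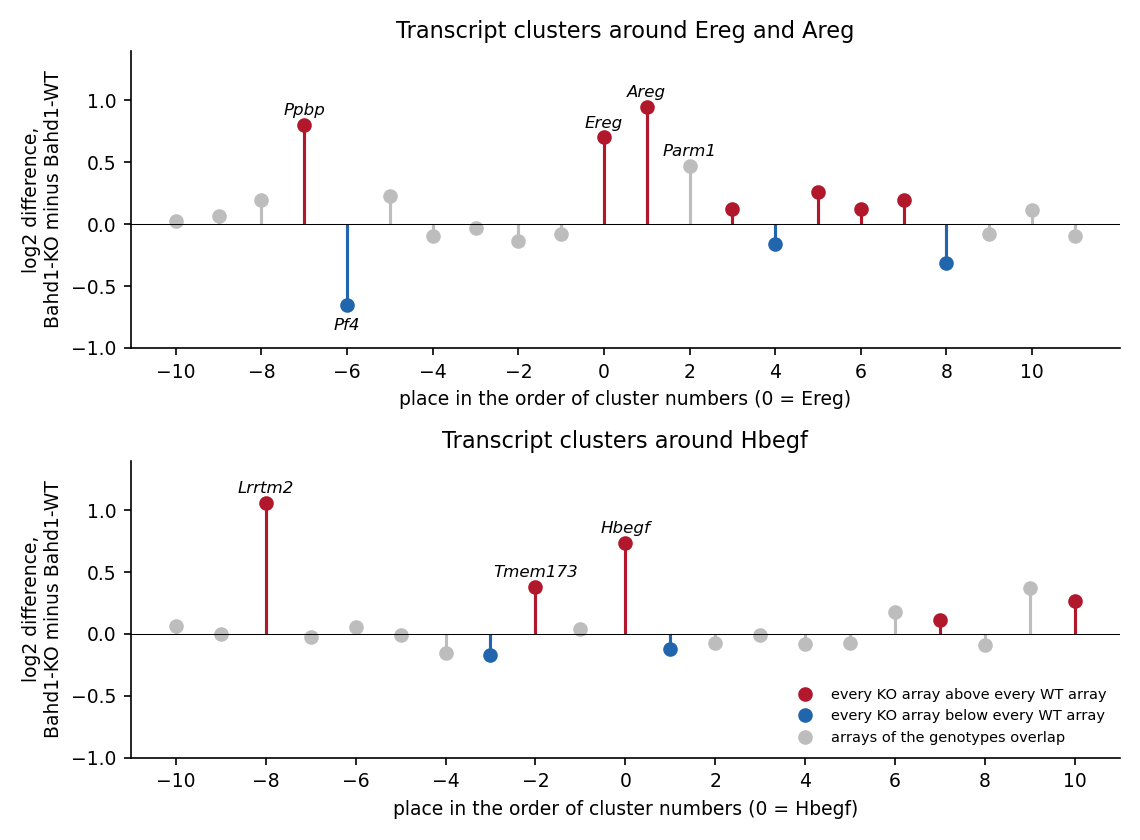
Log2 difference, Bahd1-KO minus Bahd1-WT, of the clusters numbered around Ereg and Areg (top) and around Hbegf (bottom), by place in the order of cluster numbers. Red and blue points have every Bahd1-KO array above or below every Bahd1-WT array, and the greatest differences among the flanking clusters are 0.80 (Ppbp) at the top and 1.05 (Lrrtm2) at the bottom.

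The rest of the EGF receptor pathway could be followed only through the 491 named clusters, all of them from a table of called genes, so a gene absent from them has no value here and 0 genes of any list passed limma's adjusted threshold. Of 11 EGF family ligands the 3 described were named. None of the 4 ErbB receptors and none of 15 genes of the signalling core between receptor and ERK was named. Of 7 genes of ligand shedding 1 was named, Adam12, a metalloprotease that can release HB-EGF. It had 8.45, 8.46 and 8.56 in Bahd1-KO arrays against 7.90, 8.04 and 7.42 in Bahd1-WT arrays, a difference of 0.70 with no overlap.

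Of 9 genes of receptor feedback 2 were named, and they differed in direction. Errfi1, an inhibitor that binds the kinase domain of EGFR, averaged 10.31 ± 0.12 in Bahd1-KO MEFs and 9.94 ± 0.13 in Bahd1-WT MEFs, a difference of 0.37. Lrig3, a member of a family of transmembrane regulators of receptor kinases, averaged 7.55 ± 0.10 in Bahd1-KO MEFs and 8.01 ± 0.09 in Bahd1-WT MEFs (SD, n = 3 each), a difference of -0.46. In both genes the genotypes did not overlap. Of all clusters 11.4% stood apart upward and 6.64% downward, and of the named clusters 59.7% stood apart upward.

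Of 39 genes of ERK feedback and of the transcriptional response to ERK, 16 were named. All 16 had a higher mean in Bahd1-KO MEFs, by 0.40 to 1.24 with a median of 0.59, beside the median of 0.43 for all named clusters, and 15 of them had each Bahd1-KO array above each Bahd1-WT array, beside 59.7% of the named clusters and 11.4% of all clusters. These genes have names here because they were called, so nothing is read from that count. The feedback genes named were 4 of 14. Dusp4, a nuclear phosphatase of ERK, had 8.05, 8.13 and 8.31 in Bahd1-KO arrays against 7.32, 7.27 and 6.99 in Bahd1-WT arrays, a difference of 0.97. Dusp6, a cytoplasmic phosphatase specific for ERK, had 9.20, 9.32 and 9.65 in Bahd1-KO arrays against 8.93, 8.71 and 8.34 in Bahd1-WT arrays, a difference of 0.73. Like Hbegf, both were highest in Bahd1-KO replicate 3 and lowest in Bahd1-WT replicate 3. Spry4 and Spred3, inhibitors of the RAS to ERK pathway, differed by 0.54 and 0.46.

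The response genes named were 12 of 25, and 11 of them did not overlap between genotypes, again beside 59.7% of all named clusters. The greatest difference was that of the cytokine gene Il6, which had 6.16, 6.56 and 6.56 in Bahd1-KO arrays against 4.72, 5.41 and 5.42 in Bahd1-WT arrays, 1.24 apart in the means. Mmp10, a matrix metalloprotease gene, was the one that overlapped, with a difference of 0.73. The AP-1 component Fosl1 differed by 0.69, the cytokine gene Lif by 0.67, and the transcription factor genes Egr2 and Myc by 0.66 and 0.61.

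**Figure D4:**
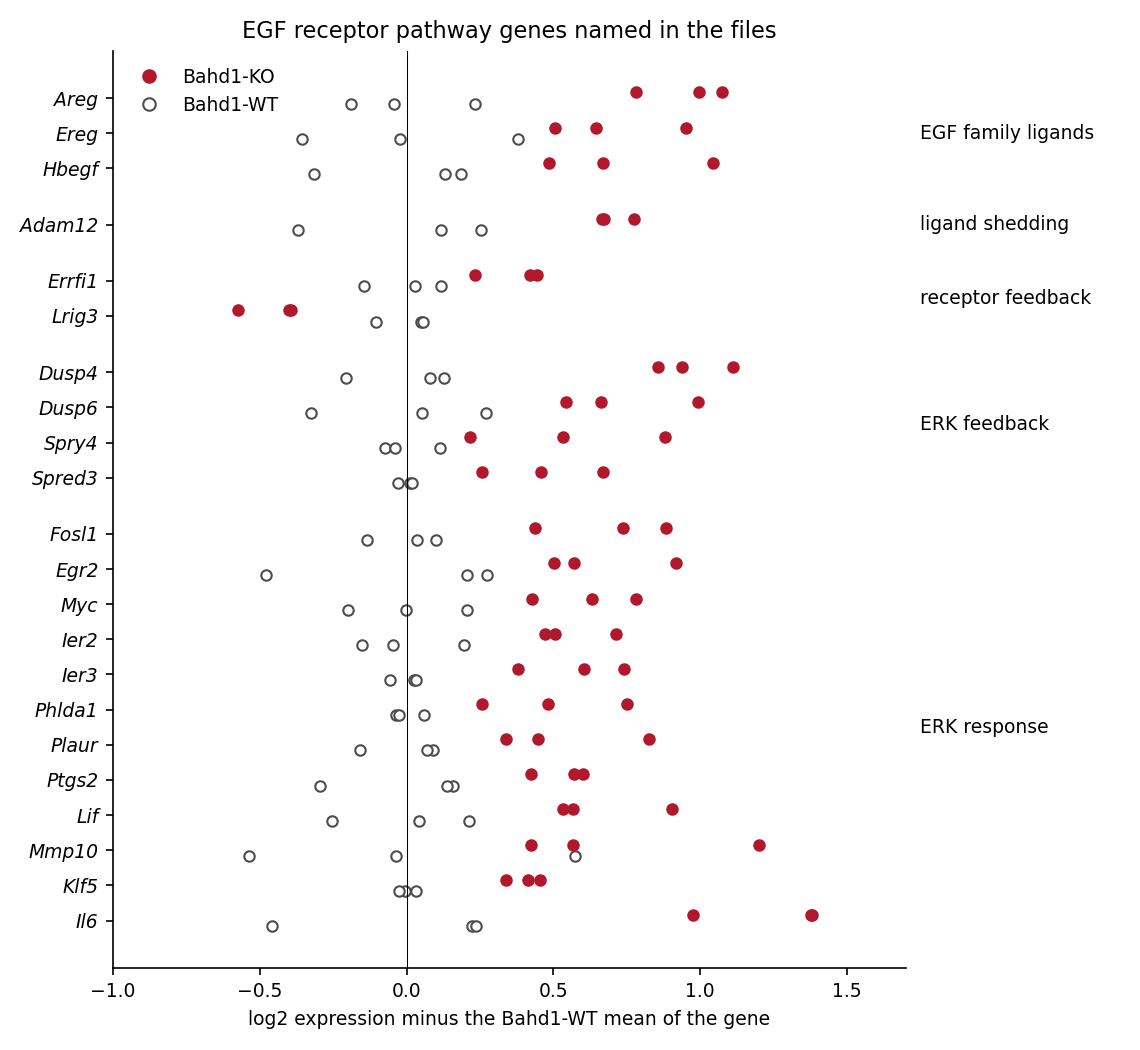
Log2 expression of the named genes of the EGF receptor pathway on each array, relative to the Bahd1-WT mean of the gene, with Bahd1-KO embryos as filled and Bahd1-WT embryos as open points. Lrig3 is the only gene with lower Bahd1-KO values, and Mmp10 the only one whose genotypes overlap.

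Between embryos of 1 genotype, the 16 ERK genes followed Hbegf more closely than Areg. The median r of their deviations was 0.81 with Hbegf (from -0.41 to 0.97, positive for 15 genes), 0.51 with Ereg (from -0.16 to 0.81, positive for 15) and -0.12 with Areg (from -0.88 to 0.73, positive for 5). Bahd1-KO replicate 3 was the highest Bahd1-KO array in 13 of these genes and Bahd1-WT replicate 3 the lowest Bahd1-WT array in 11, with both in 10 (62.5%, beside 39.8% of all named clusters that were higher in Bahd1-KO MEFs). Adam12, outside these 16 genes, had an r of deviations of 0.81 with Hbegf and stood only at place 100 of 490 named clusters. An r of this size with Hbegf was thus not particular to the ERK genes. The differences between these r values were not tested.

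The named markers of other cell types also had higher means in Bahd1-KO MEFs, as did 354 of the 491 named clusters. Of 8 epithelial markers 3 were named, all keratins, and their mean level lay between 7.58 and 7.79 in Bahd1-KO arrays and between 6.60 and 7.14 in Bahd1-WT arrays. Krt18 differed by 1.08, Krt19 by 0.86 and Krt20, which overlapped, by 0.53. Of 5 endothelial markers Emcn alone was named (1.25), and of 5 macrophage markers Csf1r alone (0.43). Of 5 muscle markers Des (0.80) and Cnn1 (0.41) were named. None of Emcn, Csf1r, Des and Cnn1 overlapped between genotypes, beside 59.7% of the named clusters and 11.4% of all clusters that stood apart upward. The markers have names here because they were called, so nothing is read from their separation. Csf1r lay between 6.28 and 6.74 in Bahd1-KO arrays and between 6.05 and 6.16 in Bahd1-WT arrays, and the mean of the muscle markers between 9.06 and 9.30 in Bahd1-KO arrays and between 8.56 and 8.59 in Bahd1-WT arrays. Of 10 fibroblast markers 2 were named, the growth factor receptor gene Pdgfra (-0.55) and the proteoglycan gene Lum (-0.59), with a mean level between 7.73 and 8.10 in Bahd1-KO arrays and between 8.35 and 8.85 in Bahd1-WT arrays. The defining markers Epcam, Pecam1, Ptprc and Col1a1 are not among the named clusters, so neither the labelled cell type nor the other ones could be checked by them, and the part of cell composition in the ligands' differences was not tested.

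The differences of Ereg and Hbegf moved more than that of Areg with how the values were handled and which arrays were used. Over 12 other settings the difference was 0.85 to 1.06 for Areg, 0.52 to 0.89 for Ereg and 0.54 to 0.86 for Hbegf, and each ligand stayed within 1 pooled SD of the value given above in all 12. The replicate block, 1 of these settings, could not change a difference, as each genotype holds every replicate number. The lowest value of Ereg came without Bahd1-WT replicate 3 and its highest without Bahd1-WT replicate 2. The lowest value of Hbegf came from group medians, which are 9.21 in Bahd1-KO and 8.67 in Bahd1-WT arrays.

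**Figure D5:**
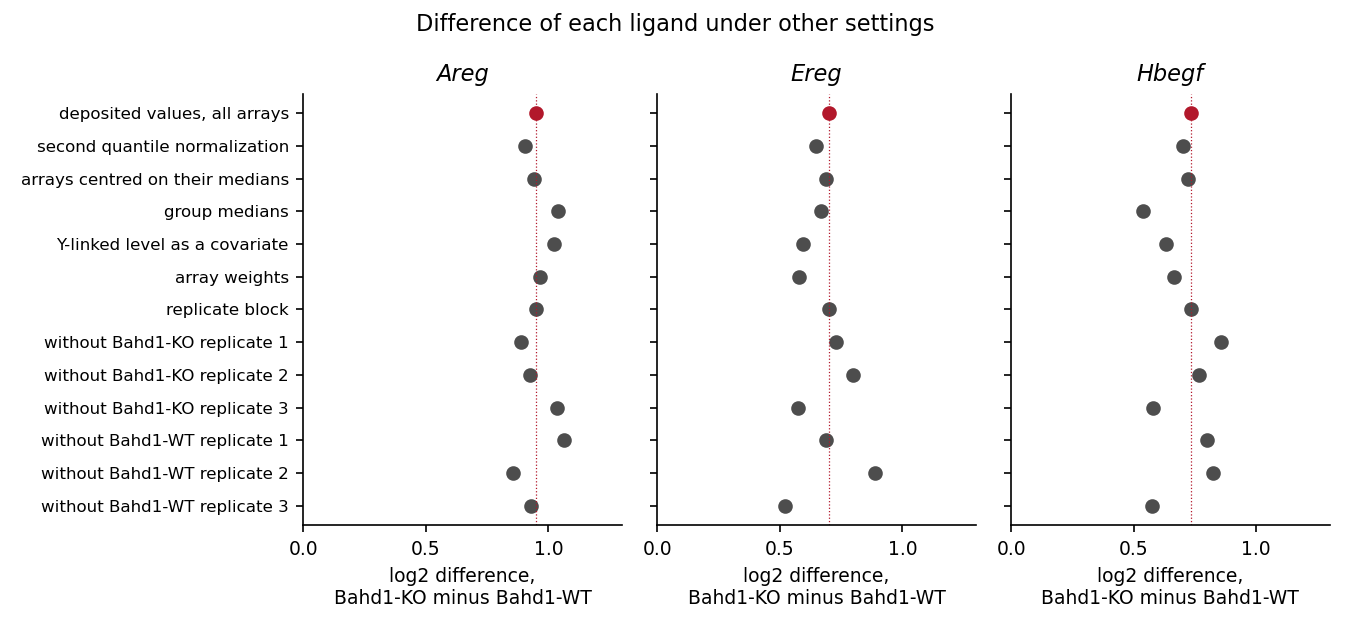
Log2 difference, Bahd1-KO minus Bahd1-WT, of each ligand under the main and other settings, including each array left out in turn. Areg stays between 0.85 and 1.06, Ereg between 0.52 and 0.89 and Hbegf between 0.54 and 0.86.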

How the data were processed

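The log2 values were computed by the authors with RMA at the gene core level, which corrects background, normalises between arrays and summarises the probes of each of 23332 transcript clusters. The RNA kit is named differently in the labels and in the methods, and the software version and the array annotation's build are not given in the sources used here. The deposited comparison table gives symbols for 491 clusters, and 491 of 491 carry the same log2 values as the matrix of all clusters. Its columns of SDs, differences, fold changes, z-scores and adjusted p-values were not used. The members and gene lists were chosen with earlier results of these data known. Differences are Bahd1-KO minus Bahd1-WT means of the deposited values. The methods name the LPE test. Here limma (version 3.58.1, R 4.3.3) was fitted to all clusters with lmFit and eBayes, two-sided and adjusted by Benjamini-Hochberg at 0.05, after it had been tested on simulated data. Tables and figures used Python 3.11.15, numpy 2.4.6, pandas 2.3.3 and matplotlib 3.10.9. Genes with values are the members, the 3 named clusters most like each, the pathway and marker lists (at most 6 of a long list, by size of difference), and Y-linked genes. Those of the flanking windows were chosen after their values were seen. One gene that the rule takes is not reported here. The number of arrays limits the precision.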

Additional observations from a re-analysis of the deposited data

How the results depend on the processing

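The differences of Areg, Ereg and Hbegf kept their direction in all 12 settings. With arrays left out, group medians, array weights or the replicate block this had to follow from the separation with all arrays. All 3 ligands stood apart under a second quantile normalization, under centring on array medians and with each array left out in turn. The outcome was fixed for arrays left out, since the genotypes already stood apart with all arrays. Centring could not undo it either, as the array medians, 5.01 to 5.06, differ by less than the narrowest gap of 0.12. Leaving out each array in turn gave 0.85 to 1.06 for Areg, 0.52 to 0.89 for Ereg and 0.58 to 0.86 for Hbegf. The clusters with each Bahd1-KO array above each Bahd1-WT array numbered 3820 to 3999 when 1 array was left out, against 2663 with all, because fewer arrays have to stand apart. When limma was fitted only to clusters above the median brightness, 36 passed, against 0 over all clusters. Of these, 29 had a higher and 7 a lower mean in Bahd1-KO. The model was refitted to those clusters alone, so its estimates of spread as well as the number adjusted for changed. The part of each was not tested. The same replicate numbers did not pair the samples: same-numbered arrays of the genotypes had deviations with r of -0.0005, 0.03 and 0.0002, and 2 of 6 arrays correlated best with their own number. With the replicate block the differences were 0.95, 0.70 and 0.73, which could not change because each genotype holds every replicate number, and limma called 0 clusters. Of the 31 other genes in 372 combinations of gene and setting, 371 kept their direction, and the exception was Y-linked Eif2s3y, at -0.14 with Y-linked level as a covariate against 1.54. These genes too came from the table called on this contrast. Where their genotypes stood apart, the direction was fixed with arrays left out, group medians, array weights or the replicate block. Depth does not apply to arrays, and the number of arrays limits the precision.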
